A study of Mus musculus with 9 samples.

Results

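This section describes 10 genes of transforming growth factor-β (TGF-β) and activin signaling in mouse epididymal adipose tissue during weight loss: the ligand genes Tgfb1, Tgfb2, Tgfb3, Inhba and Inhbb, the receptor genes Tgfbr1, Tgfbr2 and Tgfbr3, and the intracellular mediators Smad3 and Smad7. They were taken by gene symbol from the 56748 genes of the count table, and all 10 were found and passed the filter on low counts. RNA-seq was performed on 9 libraries from male wild-type C57BL/6J mice, which were 8 weeks old when high-fat diet (HFD) feeding began. The 3 Pre libraries came from mice after 8 weeks of HFD, and the 3 WL1 and 3 WL2 libraries from mice that were then returned to standard diet (SD) for 1 and 2 weeks, respectively. All mice had therefore been made obese by HFD, and they were 16 (Pre), 17 (WL1) and 18 (WL2) weeks old at sampling. No mice kept on HFD for the added weeks were analysed here, so diet and age cannot be told apart.

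TGF-β ligands are secreted in a latent form bound to the extracellular matrix and become active once integrins, thrombospondin or proteases release them. Active ligand binds the type II receptor, which then phosphorylates the type I receptor, and the type I receptor phosphorylates Smad2 and Smad3, which enter the nucleus with Smad4 and drive genes of the matrix and of growth arrest. Smad7 is induced by the pathway and blocks the type I receptor. In obese adipose tissue, TGF-β is known for driving fibroblasts to deposit collagen, and activins, made from inhibin β subunits, signal through related receptors to the same Smads.

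The libraries held 16434450 to 22729072 reads assigned to genes. Replicates of a phase correlated at Pearson's r of 0.962 to 0.987 over genes on the log2 CPM scale, with Pre 2 apart from both other Pre libraries, at 0.962 to Pre 1 and 0.969 to Pre 3. CPM below are reads scaled to the size of the library. In Pre 2, 6 B cell markers summed to 215 CPM, against 4.13 to 21.0 CPM in every other library. Markers of the tissue were present: 8 adipocyte markers summed to 11947 to 23493 CPM and 6 epididymis markers to at most 0.232 CPM. Mitochondrial transcripts took 3.15 to 3.57% of reads at Pre, 1.86 to 2.03% at WL1 and 2.28 to 2.88% at WL2, and their part in the results was not tested. The labels number the replicates without stating that each came from a separate mouse, so p-values measure only the spread between these libraries. In bulk tissue, fewer cells of a type and less RNA per cell cannot be told apart.

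The type I receptor gene Tgfbr1 was the only one of the 10 members that passed the test in any of the 3 comparisons. It was 1.71-fold higher at WL1 than at Pre and 1.79-fold lower at WL2 than at WL1. Tgfb1, Inhbb and Smad3 each showed phases without overlap in at least 1 comparison, but none of them passed. Changes are given as log2 fold changes with SE from edgeR's quasi-likelihood test over 18510 genes, with a Benjamini-Hochberg adjusted p under 0.05 taken as passing. At WL1 against Pre, 1 of 10 members passed, against 7.29% of all genes tested, and 1 of 10 had libraries that did not overlap, against 28.7% of all genes. At WL2 against Pre, 0 of 10 passed by edgeR, with 2 of 10 at an unadjusted p under 0.05 and 2 of 10 by DESeq2, against 10% of all genes tested by edgeR, 26.0% at an unadjusted p under 0.05 and 16% by DESeq2. The libraries of these phases did not overlap for 2 of 10 members, against 30.9% of all genes. At WL2 against WL1, 1 of 10 passed, against 3.68% of all genes, and 4 of 10 did not overlap, against 30.3%. An unadjusted p under 0.05 was reached by 1 of 10 members in the first comparison, against 24.3% of all genes, and by 3 of 10 in the last, against 21.4%. Counts of 0 or 1 member are no result about the members as a set. The median log2 fold change of the members was 0.0020, -0.17 and -0.16 in these comparisons in that order, beside 0.021, 0.0084 and -0.0014 for all genes tested. The comparisons share libraries with one another, so their values stand side by side and are not independent.

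**Figure D1:**
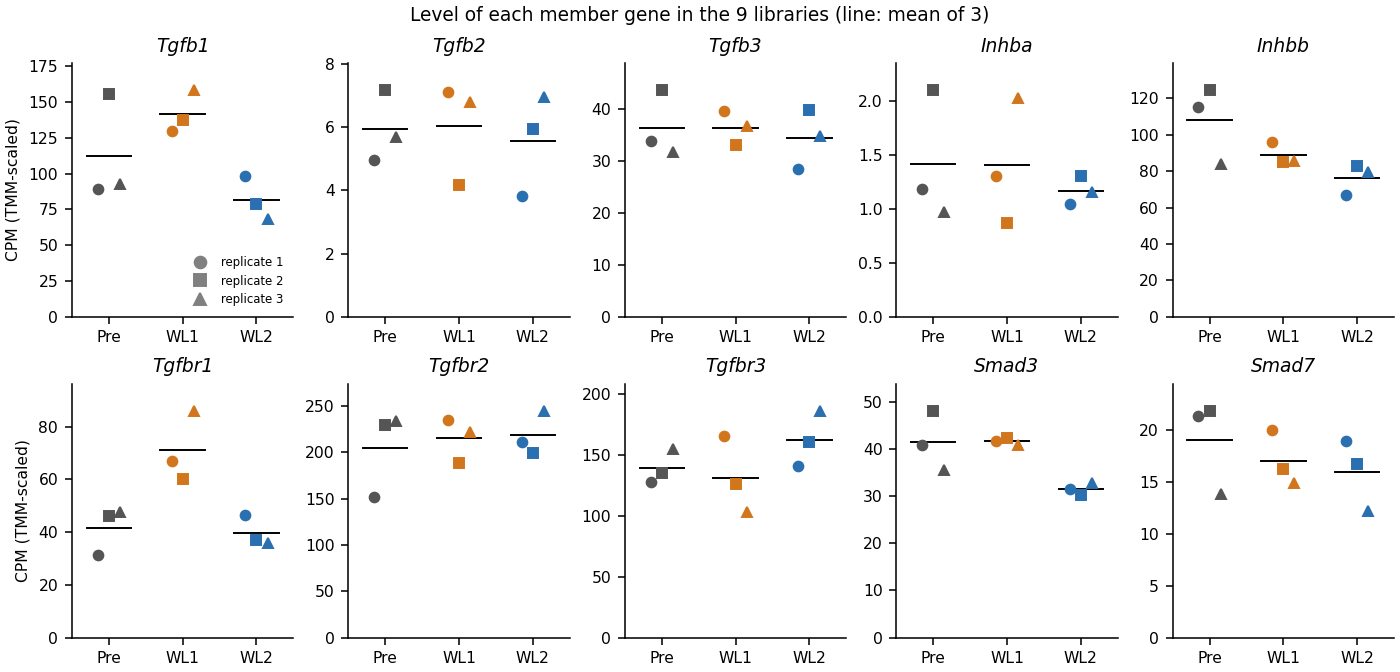
Level of each of the 10 members in CPM scaled by TMM factors (y axis, from 0) in the 3 libraries of each phase (x axis), with symbols for replicate numbers and a line at the mean of 3. The 3 WL1 points of Tgfbr1, from 60.02 to 86.0 CPM, lie above all Pre and WL2 points, and the 3 WL2 points of Smad3, from 30.2 to 32.8 CPM, lie below all others.

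Levels were compared between genes per length, as the deposited FPKM, in which fragments are scaled by transcript length and library size, averaged over the 9 libraries. The type II receptor Tgfbr2 was highest at 24.3 ± 3.39 FPKM (SD, n = 9), followed by Tgfb1 at 20.7 ± 6.13, the coreceptor Tgfbr3 at 20.6 ± 3.69 and Inhbb at 20.0 ± 4.02 FPKM. The ranges of these 4 genes overlapped, so their order was not set apart. Tgfb3 at 9.88 ± 1.33, Tgfbr1 at 7.24 ± 2.44 and Smad3 at 6.44 ± 0.998 FPKM formed the next step, again with overlapping neighbours. Smad7 at 3.59 ± 0.701, Tgfb2 at 0.944 ± 0.211 and Inhba at 0.194 ± 0.0644 FPKM each lay apart from the gene above. Thus Tgfb1 was the main TGF-β transcript, Inhbb was far above the other activin subunit gene, and the type II receptor transcript was above the type I transcript in every library.

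Among the ligands, Tgfb1 (ENSMUSG00000002603, chromosome 7, 25386427 to 25404502 in the authors' table), which encodes the TGF-β isoform made by most immune and stromal cells, had 88.9, 156 and 92.9 CPM in Pre 1 to 3. It had 129, 137 and 158 CPM in WL1 1 to 3 and 98.1, 79.0 and 68.4 CPM in WL2 1 to 3. Pre 2 lay within the WL1 range while the other Pre libraries lay below it, and all WL2 libraries lay below all WL1 libraries. T cell markers, 8 in number, summed to 16.9, 68.4 and 33.0 CPM at Pre, 70.7, 84.8 and 153 CPM at WL1 and 74.6, 30.1 and 29.7 CPM at WL2, and with the B cell markers they were highest at Pre in Pre 2. The sum at WL1 went against most of the list: Il7r rose by a log2 fold change of 2.15 from Pre (edgeR adjusted p = 0.0292), while the other 7 markers were lower by fitted log2 difference without passing, and the list median was -1.15. The part of lymphocytes in the Tgfb1 values was not tested. The log2 difference of WL2 from WL1 was -0.79 (SE 0.216, 95% interval -1.27 to -0.31) and missed the threshold (edgeR, Benjamini-Hochberg adjusted p = 0.0693). It passed without Pre 2, at -0.79 with an adjusted p of 0.0180 by edgeR, and without WL2 1, at -0.94 with an adjusted p of 0.0427 by edgeR. It did not pass in the other 7 of 9 fits with 1 library left out. By DESeq2, by which 11.9% of all genes passed, it passed at -0.78 (adjusted p = 0.0093). It also passed with no filter on low counts (edgeR adjusted p = 0.0071) and with the compared phases alone (edgeR adjusted p = 0.0268). Of 8 alternative settings, only these 3 passed. Over all alternatives the edgeR, DESeq2 or limma adjusted p reached 0.244. At WL1 against Pre the log2 difference was 0.33 (SE 0.214, edgeR adjusted p = 0.370). Of the 9 fits with 1 library left out, only that without Pre 2 passed, at 0.64 (edgeR adjusted p = 0.0484). At WL2 against Pre the log2 difference was -0.46 (SE 0.215, edgeR adjusted p = 0.210), and no library left out made it pass.

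Tgfb2 (ENSMUSG00000039239, chromosome 1, 186354989 to 186438186) and Tgfb3 (ENSMUSG00000021253, chromosome 12, 86103519 to 86125815) encode the other TGF-β isoforms and bind the same receptors, Tgfb2 with help from the coreceptor betaglycan. Tgfb2 had 4.95, 7.16 and 5.68 CPM at Pre, 7.11, 4.18 and 6.80 CPM at WL1 and 3.83, 5.95 and 6.95 CPM at WL2. Tgfb3 had 34.0, 43.6 and 31.8 CPM at Pre, 39.6, 33.1 and 36.8 CPM at WL1 and 28.6, 39.8 and 34.8 CPM at WL2. The 3 phases overlapped for both genes. For Tgfb3 the 95% intervals of the log2 difference ran from -0.35 to 0.35 for WL1 and from -0.43 to 0.26 for WL2, each against Pre. The intervals of Tgfb2 were wider, from -0.60 to 0.64 and from -0.71 to 0.53 in the same order, on 70 to 131 reads per library. Tgfb3 overlaps Ttll5 on the other strand, which held 2336 reads against 5985 of Tgfb3, and the counting is not known to have used strand.

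Tgfb1 made up 61.8, 68.6 and 64.0% of the summed FPKM of the 3 TGF-β isoforms at Pre, 66.5, 72.2 and 72.3% at WL1 and 68.1, 55.1 and 54.2% at WL2. The phases overlapped in each comparison. The exact permutation p of the share was 0.2 at WL1 against Pre, 0.3 at WL2 against Pre and 0.2 at WL2 against WL1 (two-sided), where 3 against 3 libraries cannot go below 0.1. This share and the ratios of receptors and of Smads were chosen after the values had been seen, and over these 9 exact permutation tests the Benjamini-Hochberg adjusted p was at least 0.45.

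Of the activin subunit genes, Inhbb (ENSMUSG00000037035, chromosome 1, 119343195 to 119349978), which encodes the βB chain that adipocytes are known to make, had 115, 124 and 84.1 CPM at Pre, 95.9, 85.2 and 85.7 CPM at WL1 and 67.1, 82.7 and 79.7 CPM at WL2. All WL2 libraries lay below all Pre and all WL1 libraries, though Pre 3 was within 2 CPM of the highest WL2 library. The log2 difference of WL2 from Pre was -0.49 (SE 0.150, 95% interval -0.83 to -0.16), just outside the threshold (edgeR, Benjamini-Hochberg adjusted p = 0.0655). Without Pre 3 it was -0.65 and passed (edgeR adjusted p = 0.0159), and by DESeq2 it passed with all libraries at -0.50 (adjusted p = 0.0256). It was -0.28 (SE 0.150) at WL1 against Pre and -0.22 (SE 0.150) at WL2 against WL1. The 8 adipocyte markers summed to 20239 to 23493 CPM at Pre, 11947 to 14430 CPM at WL1 and 14924 to 15659 CPM at WL2. At WL2 against Pre, Cidec and Lep fell, by log2 fold changes of -0.67 and -2.03 (edgeR adjusted p = 0.0046 and 2.03e-05), while Adipoq and Pparg were each at 0.21 and the list median was -0.11. The part of adipocyte markers in the Inhbb values was not tested. Inhba (ENSMUSG00000041324, chromosome 13, 16186436 to 16206206), which encodes the βA chain, had 19 to 38 reads per library. It ranged from 0.969 to 2.09 CPM at Pre, from 0.872 to 2.02 CPM at WL1 and from 1.04 to 1.30 CPM at WL2, and a difference was not detectable at this depth, with 95% intervals from -0.95 to 0.91 at WL1 against Pre and from -1.21 to 0.67 at WL2 against Pre on the log2 scale.

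Among the receptors, Tgfbr1 (ENSMUSG00000007613, chromosome 4, 47353222 to 47414931), the type I kinase that phosphorylates Smad2 and Smad3, had 31.1, 46.0 and 47.5 CPM in Pre 1 to 3. It had 67.0, 60.02 and 86.0 CPM in WL1 1 to 3 and 46.4, 36.9 and 35.8 CPM in WL2 1 to 3. All WL1 libraries were above all Pre and all WL2 libraries, WL1 3 was the highest and Pre 1 the lowest, and Pre and WL2 overlapped. It rose from 41.5 ± 9.04 CPM (SD, n = 3) at Pre to 71.0 ± 13.4 CPM at WL1, a log2 fold change of 0.77 (SE 0.190, 95% interval 0.35 to 1.19; edgeR, Benjamini-Hochberg adjusted p = 0.0377). It fell to 39.7 ± 5.79 CPM at WL2, a log2 fold change from WL1 of -0.84 (SE 0.190, 95% interval -1.26 to -0.42; edgeR adjusted p = 0.0414). At WL2 against Pre the log2 difference was -0.066 (95% interval -0.49 to 0.36). Both calls lay close to the threshold: with 1 library left out, the change at WL1 from Pre stayed between 0.60 and 0.88 but passed in 2 of 9 fits (lost without Pre 1, Pre 2, any WL1 library, WL2 2 or WL2 3), and the change at WL2 from WL1 stayed between -0.96 and -0.66 but passed in 3 of 9 (lost without Pre 3, any WL1 library, WL2 2 or WL2 3). Over all alternatives the edgeR, DESeq2 or limma adjusted p ranged from 0.0038 to 0.124 for the first change and from 0.0021 to 0.191 for the second.

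Macrophage markers had their highest mean sum at WL1, 3525 CPM, against 1948 CPM at Pre and 1955 CPM at WL2. Their WL1 and WL2 libraries overlapped, and those of Tgfbr1 did not. Within WL1 the macrophage sum was lowest in WL1 1 and Tgfbr1 in WL1 2. Pre 1 was the lowest of the 9 libraries for both, at 1325 CPM of macrophage markers and 31.1 CPM of Tgfbr1. Of the WL2 libraries, WL2 1 was the highest for both, at 2708 and 46.4 CPM. The summed level of 8 macrophage markers was 1325 to 2372 CPM at Pre, 2585 to 4956 CPM at WL1 and 1486 to 2708 CPM at WL2, and WL1 3 was the highest library for these markers as it was for Tgfbr1. All 8 were higher at WL1 than at Pre and lower at WL2 than at WL1 by fitted log2 difference, 0 of them passing by edgeR in either comparison, with 5 and 6 of 8 at an unadjusted p under 0.05. Of 8 lipid-associated macrophage markers, 5 rose at WL1 and 7 were higher, with Lpl, which adipocytes also express, at a log2 difference of -0.29. They summed to 5087 to 14176 CPM at Pre, 11756 to 16781 CPM at WL1 and 6423 to 9258 CPM at WL2, so Pre and WL1 overlapped. The mean sum was lower at WL2 than at Pre, at 7726 against 11126 CPM, which went against most of the list. At WL2 against Pre, 7 of 8 were higher, 0 passing by edgeR, with a list median of 0.48 and Lpl at -0.86. Markers of fibroblasts and adipocyte progenitors summed to 706 to 906 CPM at Pre, 645 to 935 CPM at WL1 and 794 to 873 CPM at WL2, so the phases overlapped. Of these 8, Thy1 alone passed against Pre, at log2 fold changes of -0.64 at WL1 and -0.94 at WL2 (edgeR adjusted p = 0.0244 and 0.0026). In the same order, 3 and 4 of 8 were higher and the list medians were -0.21 and 0.061. The part of these markers in the Tgfbr1 result was not tested.

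**Figure D2:**
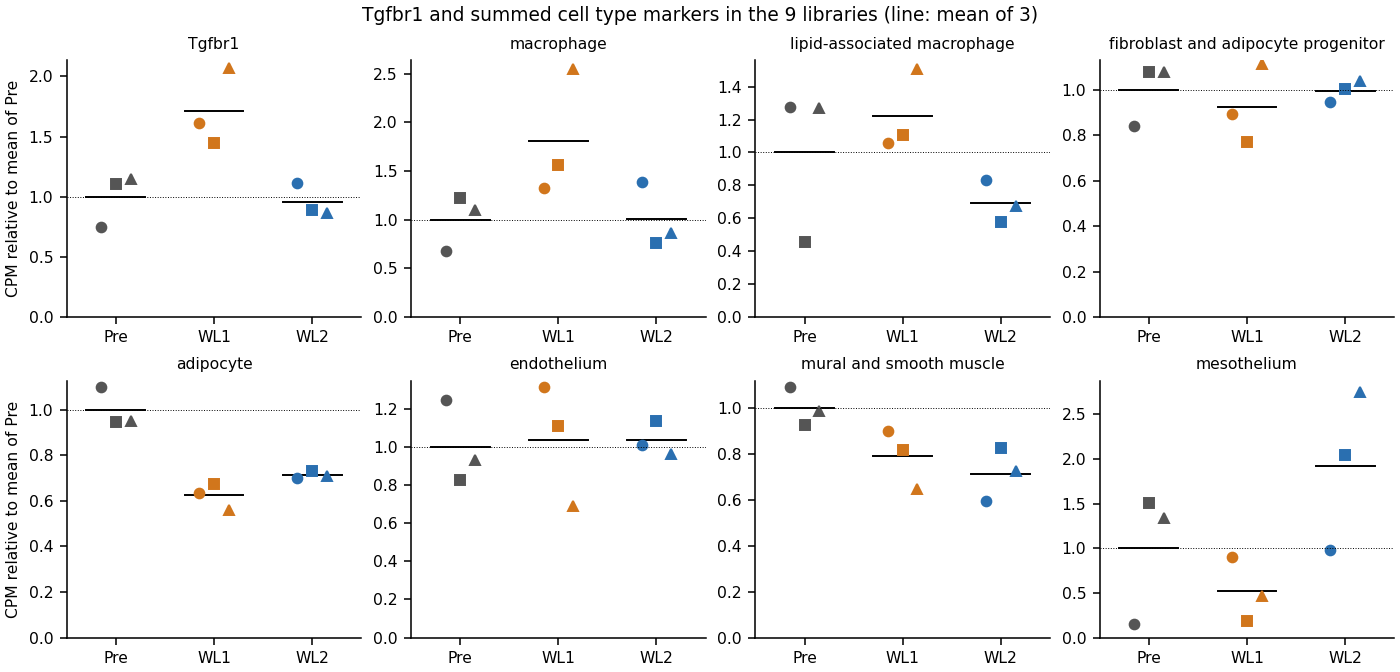
Tgfbr1 and the summed CPM of 7 marker lists in the 3 libraries of each phase, each divided by its own mean at Pre (y axis, from 0, dotted line at 1), with a line at the mean of 3. Macrophage markers and Tgfbr1 were both highest in WL1 3 and lowest in Pre 1. Macrophage markers overlapped between WL1 and WL2, and Tgfbr1 did not. Adipocyte markers were lower in all WL1 and WL2 libraries than in all Pre libraries.

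Because Tgfbr1 was the member that passed, the 250 bases before its RefSeq transcription start are shown (GRCm38.p6, chr4:47352972-47353221, plus strand), with capitals for the GC box letters GGGCGG, found 2 times.
Tgfbr1: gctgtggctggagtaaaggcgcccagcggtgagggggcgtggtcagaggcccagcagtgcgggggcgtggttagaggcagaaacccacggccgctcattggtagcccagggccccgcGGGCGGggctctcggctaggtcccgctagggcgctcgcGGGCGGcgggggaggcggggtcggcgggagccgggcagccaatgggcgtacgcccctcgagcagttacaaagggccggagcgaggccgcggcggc
The Smad box letters CAGAC and the TATA box letters TATAAA did not occur in this window on either strand. Of 32851 RefSeq promoter windows of the same length, 32.7% held GGGCGG, 42.2% CAGAC and 12.4% TATAAA on either strand. A match of these letters is a description of the sequence only.

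The type II receptor Tgfbr2 (ENSMUSG00000032440, chromosome 9, 115913361 to 116004428), which binds the ligand first, had 152, 229 and 233 CPM at Pre, 235, 189 and 223 CPM at WL1 and 211, 199 and 245 CPM at WL2. The phases overlapped, with Pre 1 below all other libraries. The log2 difference was 0.072 (95% interval -0.30 to 0.45) at WL1 against Pre and 0.093 (95% interval -0.28 to 0.47) at WL2 against Pre. Tgfbr3 (ENSMUSG00000029287, chromosome 5, 107254436 to 107437495), which encodes betaglycan, a coreceptor that presents TGF-β to the type II receptor, had 128, 135 and 155 CPM at Pre, 165, 126 and 103 CPM at WL1 and 141, 160 and 186 CPM at WL2. Its phases also overlapped, and its log2 difference at WL2 from WL1 was 0.31 (95% interval -0.08 to 0.69; edgeR adjusted p = 0.350).

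The ratio of Tgfbr1 to Tgfbr2 FPKM within a library was 0.257, 0.251 and 0.255 at Pre, 0.358, 0.398 and 0.484 at WL1 and 0.275, 0.232 and 0.184 at WL2. All WL1 libraries were above all others, and the Pre libraries differed among themselves by far less than those of WL1 or WL2. The mean ratio was 0.254 ± 0.00285 (SD, n = 3) at Pre, 0.413 ± 0.0644 at WL1 and 0.230 ± 0.0457 at WL2. The exact two-sided permutation p was 0.1 for WL1 set against either other phase, the smallest that 3 against 3 libraries allow, and 0.5 for WL2 against Pre. Pre 1, which was the lowest of the 9 libraries for both of these receptors, had a ratio within 0.01 of the other Pre libraries.

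**Figure D3:**
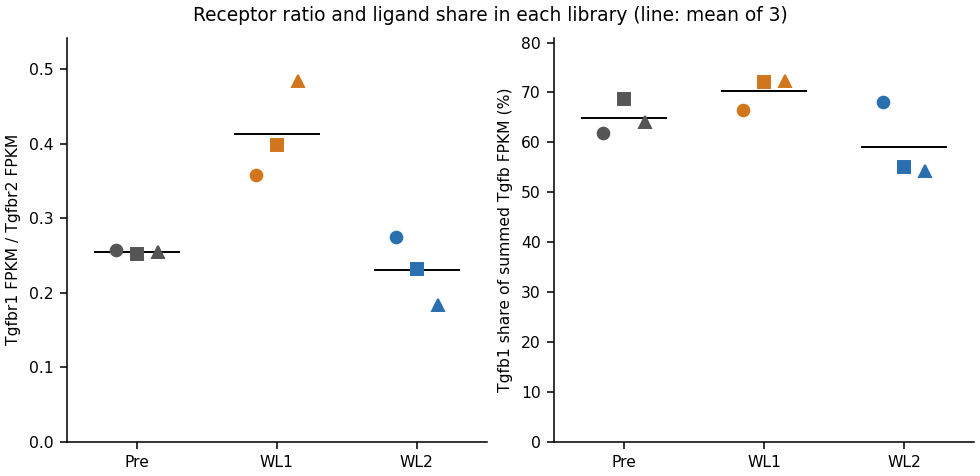
Left, ratio of Tgfbr1 to Tgfbr2 FPKM, and right, share of Tgfb1 in the summed FPKM of Tgfb1, Tgfb2 and Tgfb3 in percent, in the 3 libraries of each phase, with lines at the means. The 3 WL1 ratios, from 0.358 to 0.484, lie above all others, while the shares of the phases overlap.

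Of the mediators, Smad3 (ENSMUSG00000032402, chromosome 9, 63554049 to 63665276), the receptor-activated transcription factor, had 40.9, 48.1 and 35.6 CPM at Pre, 41.7, 42.4 and 40.9 CPM at WL1 and 31.5, 30.2 and 32.8 CPM at WL2. All WL2 libraries lay below all Pre and all WL1 libraries, and the WL1 libraries lay within the Pre range. The log2 difference of WL2 was -0.40 from Pre (SE 0.120, 95% interval -0.66 to -0.13; edgeR adjusted p = 0.0626) and -0.40 from WL1 (SE 0.120, 95% interval -0.67 to -0.14; edgeR adjusted p = 0.0874), so neither passed. The first passed without Pre 3, at -0.50 (edgeR adjusted p = 0.0282), and the second without Pre 2, at -0.40 (edgeR adjusted p = 0.0392). Both passed by DESeq2, at -0.40 from Pre (adjusted p = 0.0288) and -0.39 from WL1 (adjusted p = 0.0465).

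Smad7 (ENSMUSG00000025880, chromosome 18, 75500600 to 75529006), the inhibitory Smad, had 21.4, 21.9 and 13.8 CPM at Pre, 20.1, 16.3 and 14.9 CPM at WL1 and 19.0, 16.7 and 12.2 CPM at WL2. The phases overlapped, and replicate 3 was the lowest library in each. The log2 difference from Pre was -0.15 (95% interval -0.63 to 0.33) at WL1 and -0.25 (95% interval -0.73 to 0.23) at WL2. The ratio of Smad3 to Smad7 FPKM ranged from 1.56 to 2.10 at Pre, from 1.69 to 2.24 at WL1 and from 1.35 to 2.19 at WL2, with exact two-sided permutation p of 0.4, 0.7 and 0.3 for WL1 against Pre, WL2 against Pre and WL2 against WL1.

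**Figure D4:**
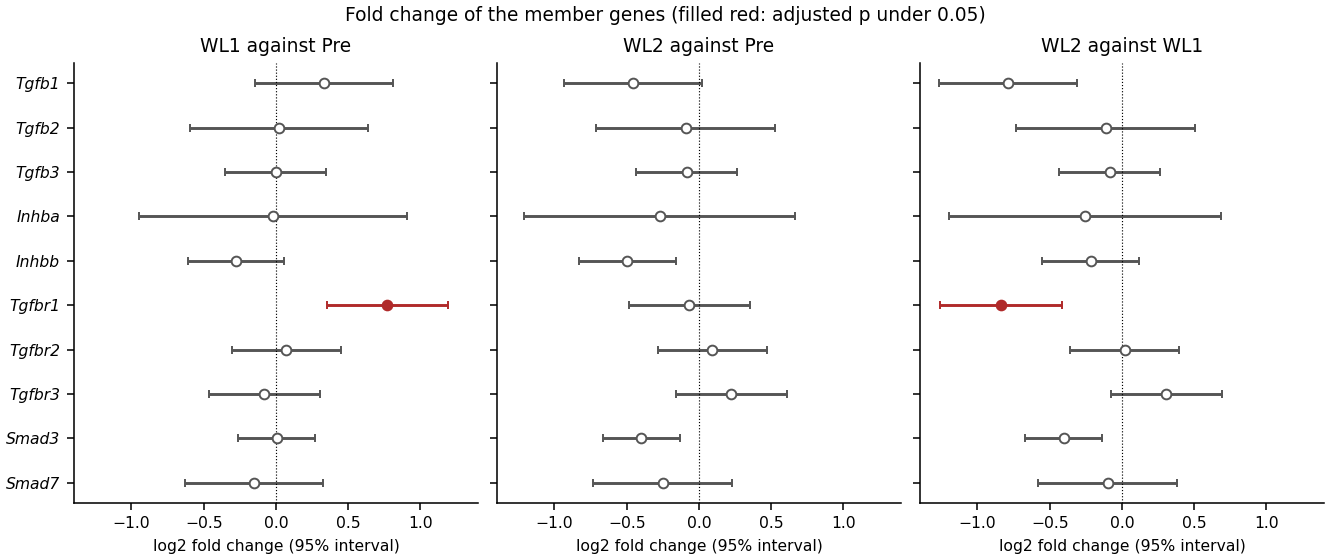
Log2 fold change of the 10 members in the 3 comparisons (x axis) with 95% intervals, filled red where the edgeR adjusted p was under 0.05. Tgfbr1 is filled in the left panel (0.77) and in the right one (-0.84), and the intervals of Tgfb2, Tgfb3, Tgfbr2, Tgfbr3 and Smad7 include 0 in each panel.

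The genes whose profile over the 9 libraries was nearest to that of Tgfbr1, among 13118 genes with a mean of at least 1 CPM, were the chemokine-like factor gene Cklf, the kinase gene Camk1d and the chromatin remodeler gene Chd3. Their root mean square difference from Tgfbr1 in centred log2 CPM was 0.0779, 0.0926 and 0.103, where the SD of Tgfbr1 itself was 0.467. Cklf had 5.01 to 7.57 CPM at Pre, 9.55 to 12.4 CPM at WL1 and 5.61 to 8.05 CPM at WL2. Chd3 had 53.8 to 75.0 CPM at Pre, 86.7 to 114 CPM at WL1 and 53.4 to 67.2 CPM at WL2. None of the 3 passed at WL1 against Pre, with edgeR adjusted p from 0.0523 to 0.0823. At WL2 against WL1, Camk1d and Chd3 fell by 0.79 and 0.77 on the log2 scale (edgeR adjusted p = 0.0456 and 0.0305), and Cklf was at -0.71 (edgeR adjusted p = 0.0898).

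Around the members, 93 other genes of the pathway were listed by role and 86 passed the filter on low counts; Itgb6, Bmp8a, Gdf7, Inhbc, Inhbe, Nodal and Tgif2 did not. At WL1 against Pre, 4 rose and 6 fell, at WL2 against Pre 6 rose and 11 fell, and at WL2 against WL1 2 rose and 4 fell, all by edgeR. Among all genes tested, 2.60% rose and 4.69% fell in the first comparison, 3.35% rose and 6.66% fell in the next, and 1.31% rose and 2.37% fell in the last. The lists had a median log2 fold change of 0.0020, -0.048 and -0.085 in that order. Without Pre 2 the counts that passed were 7, 13 and 8, against 5.40, 8.39 and 6.03% of all genes in that fit.

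Of the genes of latency and activation, 14 were tested, of which 2 passed at WL1 and 3 at WL2 against Pre. Thbs1, whose product thrombospondin-1 can activate latent TGF-β, had 305, 348 and 510 CPM at Pre, 1003, 857 and 753 CPM at WL1 and 1423, 1412 and 1657 CPM at WL2. The 3 phases did not overlap. It rose by a log2 fold change of 1.17 (SE 0.192, edgeR adjusted p = 0.0070) at WL1 and 1.95 (SE 0.196, edgeR adjusted p = 0.000227) at WL2, and passed with any 1 library left out. Ltbp3, which tethers latent TGF-β to the matrix, had 517, 657 and 561 CPM at Pre, 438, 429 and 408 CPM at WL1 and 291, 294 and 326 CPM at WL2, so each phase lay below the one before. It fell by log2 fold changes of -0.44 (SE 0.115, edgeR adjusted p = 0.0454) at WL1 and -0.93 (SE 0.116, edgeR adjusted p = 0.00085) at WL2, of which the first was lost in all 9 fits that left out 1 library (-0.52 to -0.34) and the second in none. Its change from WL1 to WL2 was -0.49 (SE 0.116, edgeR adjusted p = 0.0478), between -0.54 and -0.45 and passing in 2 of 9 such fits, those without Pre 1 or Pre 2. The integrin gene Itgb5, whose product can bind and activate latent TGF-β, was lower at WL2 than at Pre by a log2 fold change of -0.57 (SE 0.118, edgeR adjusted p = 0.0144), lost without WL2 2 or WL2 3 (-0.61 to -0.50 over the 9 fits).

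Of the other ligands of the superfamily, 14 were tested, of which 2 passed at WL1 and 2 at WL2 against Pre. Gdf15, a stress-induced hormone that acts on the hindbrain, rose from 2.89, 5.68 and 5.21 CPM at Pre to 9.88, 12.3 and 16.7 CPM at WL1, without overlap, a log2 fold change of 1.49 (SE 0.301, edgeR adjusted p = 0.0177; 1.25 to 1.66 with 1 library left out, lost without Pre 1 or WL1 3). Gdf5, a ligand of bone morphogenetic protein (BMP) receptors, had 19 to 31 reads in the Pre libraries, 6 to 10 at WL1 and 4 to 8 at WL2. It fell by a log2 fold change of -1.84 (SE 0.491, edgeR adjusted p = 0.0493) at WL1 and -2.09 (SE 0.504, edgeR adjusted p = 0.0273) at WL2, passing in 1 and 4 of 9 fits with 1 library left out (-2.16 to -1.64 and -2.42 to -1.88); the first was kept only without Pre 3, and the second was lost without Pre 1, Pre 2 or any WL2 library. Mstn, which encodes myostatin, had 16, 18 and 49 reads at Pre, 0, 8 and 9 at WL1 and 0 in each WL2 library. Against a floor of 3 reads over the group, it was at least 25.9-fold lower at WL2 than at Pre (edgeR adjusted p = 0.0170, lost without WL2 2 or WL2 3). The 6 skeletal muscle markers, of which 4 passed the filter, summed to 62.0 to 74.7 CPM at Pre, 26.0 to 29.2 CPM at WL1 and 34.7 to 55.0 CPM at WL2. The list did not move together: Acta1 fell at WL1 (log2 fold change -2.41, edgeR adjusted p = 0.0131), Mylpf was at 0.12 and Tnnt3 at 0.77, and 2 of the 4 were higher and 2 lower in each comparison with Pre. Their part in the Mstn result was not tested.

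Of 11 other receptor and coreceptor genes tested, the BMP type I receptor gene Bmpr1a alone passed, at WL2 against Pre, with 113, 119 and 137 CPM at Pre and 81.2, 86.1 and 93.0 CPM at WL2. The phases did not overlap, and it fell by a log2 fold change of -0.50 (SE 0.131, edgeR adjusted p = 0.0372), between -0.56 and -0.42 and passing in 3 of 9 fits with 1 library left out (lost without Pre 2, Pre 3, WL1 2 or any WL2 library). Of 6 other Smad genes, Smad9, a Smad of the BMP branch, rose at WL2 against Pre, from 14 to 19 reads per library to 39 to 54, a log2 fold change of 1.53 (SE 0.346, edgeR adjusted p = 0.0206; 1.37 to 1.68 with 1 library left out, lost without Pre 1, Pre 3, WL2 2 or WL2 3). Smad2 and Smad4, the partners of Smad3, did not pass, and their log2 differences from Pre were 0.02 and -0.04 at WL1 and -0.01 and 0.04 at WL2.

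Of 19 inhibitors and modulators tested, 3 passed at WL1 and 4 at WL2 against Pre. Pmepa1, a TGF-β-induced gene whose product holds back Smad signaling, had 292, 283 and 340 CPM at Pre, 141, 199 and 143 CPM at WL1 and 108, 82.1 and 109 CPM at WL2. The 3 phases did not overlap. It fell by log2 fold changes of -0.92 (SE 0.166, edgeR adjusted p = 0.0113) at WL1 and -1.62 (SE 0.169, edgeR adjusted p = 0.000291) at WL2, in all 9 fits with 1 library left out. From WL1 to WL2 it fell by -0.70 (SE 0.166, edgeR adjusted p = 0.0483), kept in 2 of 9 such fits, those without Pre 2 or WL2 1 (-0.78 to -0.51). Chrdl1, which encodes a secreted BMP antagonist, had 123, 128 and 103 CPM at Pre, 472, 380 and 248 CPM at WL1 and 535, 549 and 565 CPM at WL2. It rose by log2 fold changes of 1.64 (SE 0.202, edgeR adjusted p = 0.0015) and 2.22 (SE 0.206, edgeR adjusted p = 0.000132), also in all 9 such fits.

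Dcn, which encodes the TGF-β-binding proteoglycan decorin, was higher at WL2 than at Pre by a log2 fold change of 0.84 (SE 0.191, edgeR adjusted p = 0.0215; 0.70 to 1.00 with 1 library left out, lost without Pre 1, Pre 2, WL2 2 or WL2 3). Tgif1, a corepressor of Smads, rose at WL1 by 0.94 (SE 0.251, edgeR adjusted p = 0.0492; 0.78 to 1.06, kept only without WL2 1 or WL2 2). Chrd, which encodes the BMP antagonist chordin, was higher at WL2 than at WL1 by 0.60 (SE 0.144, edgeR adjusted p = 0.0496; 0.53 to 0.69, lost without Pre 1, any WL1 library, WL2 2 or WL2 3). Thpo overlaps it on the other strand and had 573 reads of its own, beside 2991 of Chrd.

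Of the 22 target genes, all tested, 3 fell at WL1 against Pre, and 1 rose and 5 fell at WL2 against Pre. Among all genes, 4.69% fell at WL1, and 3.35% rose and 6.66% fell at WL2. Acta2, the gene of smooth muscle actin, had 374, 350 and 371 CPM at Pre, 158, 133 and 160 CPM at WL1 and 155, 198 and 174 CPM at WL2. Every Pre library was above every WL1 and WL2 library. It fell by log2 fold changes of -1.28 (SE 0.123, edgeR adjusted p = 0.000532) at WL1 and -1.06 (SE 0.122, edgeR adjusted p = 0.00056) at WL2, in all 9 fits with 1 library left out. The 8 mural and smooth muscle markers summed to 1373 to 1619 CPM at Pre, 960 to 1334 CPM at WL1 and 880 to 1222 CPM at WL2. At WL1 against Pre, Cspg4 alone passed (log2 fold change -1.33, edgeR adjusted p = 0.0015), and 2 of 8, Notch3 and Pdgfrb, were higher at 0.21 and 0.20. At WL2 against Pre all 8 were lower, of which Cspg4 (-1.80) and Mcam (-0.60) passed by edgeR. The part of these markers in the Acta2 result was not tested. Col5a1, a fibrillar collagen gene, had 582, 662 and 739 CPM at Pre, 421, 381 and 490 CPM at WL1 and 205, 208 and 246 CPM at WL2, so the 3 phases did not overlap. Its log2 fold change was -0.62 (SE 0.138, edgeR adjusted p = 0.0261) at WL1 and -1.59 (SE 0.141, edgeR adjusted p = 0.000103) at WL2, the first between -0.73 and -0.53 and lost without Pre 2, Pre 3, WL1 1 or WL1 2, and the second passing in all 9 such fits. From WL1 to WL2 it was -0.97 (SE 0.139, edgeR adjusted p = 0.0086; -1.06 to -0.85, lost without WL2 2).

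Lox, the gene of the collagen cross-linking enzyme lysyl oxidase, had 107, 123 and 141 CPM at Pre, 112, 90.3 and 118 CPM at WL1 and 52.5, 62.3 and 71.2 CPM at WL2. The WL2 libraries lay below all others, and it fell by log2 fold changes of -1.001 (SE 0.154, edgeR adjusted p = 0.0028) from Pre, in all 9 fits with 1 library left out, and -0.78 (SE 0.154, edgeR adjusted p = 0.0270) from WL1, in 5 of 9 (-0.89 to -0.68, lost without WL1 1, WL1 3, WL2 2 or WL2 3). Id1, a target shared with the BMP branch, was the target gene that rose, from 44.6, 43.5 and 27.9 CPM at Pre to 91.9, 95.1 and 86.4 CPM at WL2, a log2 fold change of 1.24 (SE 0.229, edgeR adjusted p = 0.0080) that passed in all 9 such fits. Col3a1, named here outside the rule for named genes after its values were seen, completed those that fell at WL2, by a log2 change of -0.89 (SE 0.237, edgeR adjusted p = 0.0416; -1.02 to -0.79, lost without Pre 2, Pre 3 or any WL2 library, and under limma).

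Cdkn2b, the gene of the cell cycle inhibitor p15 and a classical target of Smad3, had 22.6, 17.2 and 21.2 CPM at Pre, 9.99, 10.1 and 10.2 CPM at WL1 and 9.09, 9.69 and 9.09 CPM at WL2. Every Pre library was above every later one, and the libraries of WL1 and WL2 were nearly alike. It fell by log2 fold changes of -1.01 (SE 0.135, edgeR adjusted p = 0.0023) at WL1 and -1.13 (SE 0.135, edgeR adjusted p = 0.000682) at WL2, in all 9 fits with 1 library left out. The 250 bases before its RefSeq start are shown as those of a Smad target that passed (GRCm38.p6, chr4:89311033-89311282, minus strand, written 5′ to 3′), with the Smad box letters CAGAC, found 1 time on either strand, in capitals.
Cdkn2b: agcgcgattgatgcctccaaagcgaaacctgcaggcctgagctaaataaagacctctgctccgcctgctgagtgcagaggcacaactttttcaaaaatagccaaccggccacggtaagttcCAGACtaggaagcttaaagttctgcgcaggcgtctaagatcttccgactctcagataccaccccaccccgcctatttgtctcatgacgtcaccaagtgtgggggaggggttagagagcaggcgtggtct
As given for the Tgfbr1 window, 42.2% of all promoter windows held these letters.

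**Figure D5:**
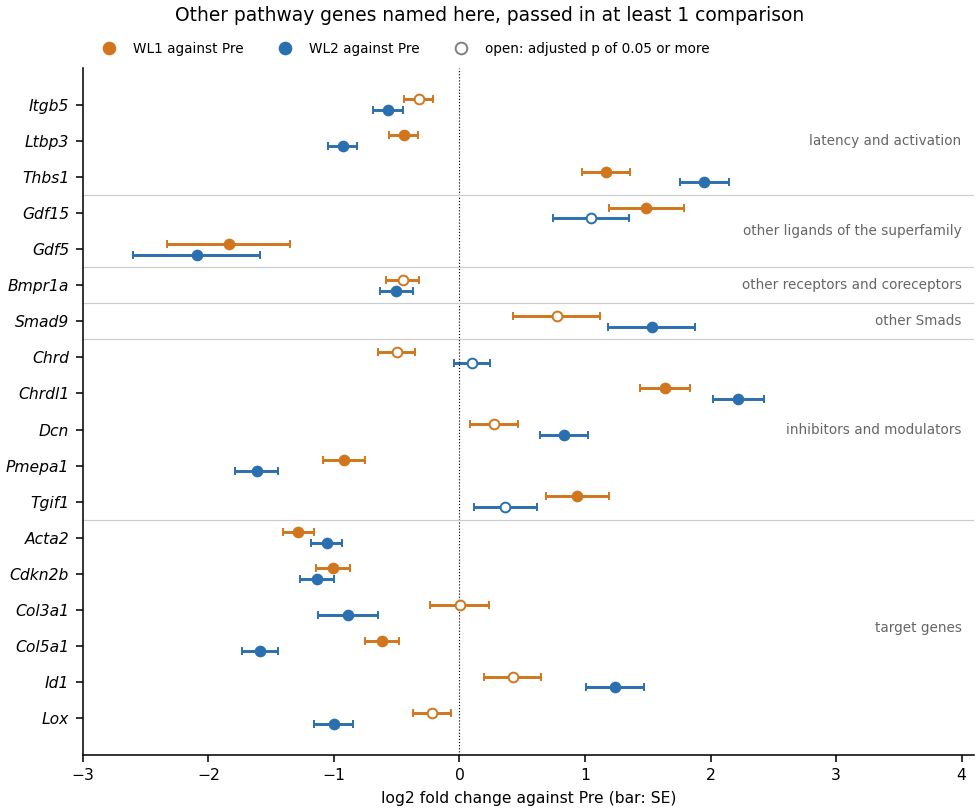
Log2 fold change against Pre (x axis) with SE of the other pathway genes named here, which passed in at least 1 of the 3 comparisons, at WL1 (orange) and WL2 (blue), filled where the edgeR adjusted p was under 0.05 and grouped by role; Mstn, at 0 reads in all WL2 libraries, is left out, and Chrd passed at WL2 against WL1 only. Thbs1 and Chrdl1 were filled on the right and Pmepa1, Acta2, Cdkn2b, Col5a1 and Ltbp3 on the left in both comparisons.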

How the data were processed

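RNA-seq of epididymal adipose tissue was performed by a commercial provider. The authors deposited whole-number read counts per gene with gene coordinates and, separately, FPKM per gene, for 9 libraries. The submitters' processing notes name HISAT2, HISAT, TopHat2, CASAVA and GRCm38 (mm10) without roles or versions; for the counter, annotation and strand setting, the sources used here name none. The coordinates deposited with the counts differ from GRCm38 annotation for most genes (1472 of 52073 shared genes had the same), so they are given as in the authors' table. A gene was kept if 1 or more libraries reached 0.5 CPM (18510 of 56748). Counts were tested with edgeR 4.0.16 in R 4.3.3 (TMM factors, quasi-likelihood test, 1 model over 9 libraries, no covariates) with Benjamini-Hochberg adjustment and a threshold of 0.05. The test was checked on simulated data. Depth was 16434450 to 22729072 reads per library, and intervals are at 95%. CPM values were scaled by TMM factors. The deposited FPKM were used for levels between genes and for ratios, whose differences were tested by exact permutation. Replicates of a phase differed by more than sampling noise (a chi-square of 9.26 to 49.7 for each degree of freedom), so each counted once.

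Alternatives were no filter, the same minimum reached by 3 libraries, DESeq2 size factors in edgeR, DESeq2 1.42.0, limma 3.58.1 on log2(FPKM + 1) and log2(FPKM + 0.1), the compared phases alone, a replicate block and leaving out each library. Genes named were the 10 members; of each pathway list every gene that passed in a comparison where 4 or fewer did, otherwise the 4 with the largest change and any in the opposite direction; and the 3 genes nearest in profile to a member that passed. Members, gene lists and marker lists were chosen with earlier results of these data known. Promoter sequences are from RefSeq on GRCm38.p6. The list of pathway genes and the markers were matched by symbol. Of the pathway genes that passed, 1 is counted but not reported here by name.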

Additional observations from a re-analysis of the deposited data

How the results depend on the processing

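The median log2 fold change of all genes moved by less than 0.1 under each scaling, and no member or named pathway gene that passed changed direction under any alternative run. At WL1 against Pre, 0 members passed under the replicate block, under limma with either pseudocount and with the compared phases alone, where Tgfbr1 had adjusted p of 0.0703 (edgeR with the block), 0.0525 and 0.0532 (limma) and 0.0677 (edgeR, phases alone). Of all genes, 4.56% passed there under the block, 7.03 and 6.47% under limma and 5.52% with the phases alone. At WL2 against Pre, 1 member passed with no filter on low counts and 2 by DESeq2, and of the pathway genes 26 and 27 did, against 7.17 and 16% of all genes. At WL2 against WL1, 2 members passed with no filter, 3 by DESeq2, 3 with the compared phases alone and 0 under the block and under limma with either pseudocount, and of the pathway genes 16 passed with no filter, 18 by DESeq2 and 3 under limma with either pseudocount. Of all genes, 5.64% passed in that comparison with no filter, 11.9% by DESeq2, 5.82% with the phases alone, 1.78% under the block and 2.90 and 2.95% under limma. Of the named pathway genes, calls at WL1 against Pre were lost for Ltbp3 and Gdf5 with no filter, the block or the phases alone and for Tgif1 with DESeq2 size factors, the block or limma. Calls at WL2 against Pre were lost for Gdf5 and Bmpr1a under the block and for Col3a1 under limma. Calls at WL2 against WL1 were lost under the block and limma for Chrd, Ltbp3 and Pmepa1, with DESeq2 size factors for Ltbp3 and Pmepa1, with the filter on 3 libraries for Ltbp3 and with the phases alone for Pmepa1. The cause of these shifts was not tested. Replicate numbers did not pair the libraries: the correlations of the deviations of same-numbered libraries ran from -0.277 to 0.107, with 1 of 9 over 0.1, so the block removes a spread that the labels do not tie to a shared source.

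With 1 library left out, members that passed numbered 0 to 1 at WL1 against Pre, 0 to 2 at WL2 against Pre and 0 to 3 at WL2 against WL1, and pathway genes 6 to 12, 9 to 20 and 0 to 8. Of all genes, 2.79 to 8.16%, 4.05 to 9.18% and 0.202 to 7.35% passed in the same fits, in that order. Only values that did not pass changed sign, the farthest from 0 being those of Inhba, -0.27 at WL2 against Pre and -0.25 at WL2 against WL1. At WL1 against Pre, the log2 difference of Tgfb2 was -0.0100 with the filter on 3 libraries and -0.0025 and -0.014 under limma with pseudocounts of 1 and 0.1. That of Tgfb3 was 0.0047 with no filter and 0.016 under the block. That of Smad3 was -0.027 with the filter on 3 libraries, -0.015 with DESeq2 size factors, -0.015 by DESeq2, -0.0065 and -0.0061 under limma and -0.018 with the compared phases alone. With 1 library left out, values at WL1 against Pre ran from -0.12 to 0.23 for Tgfb2, -0.090 to 0.15 for Tgfb3, -0.38 to 0.37 for Inhba, -0.10 to 0.18 for Tgfbr2, -0.28 to 0.057 for Tgfbr3 and -0.10 to 0.12 for Smad3. At WL2 against Pre they ran from -0.28 to 0.12 for Tgfb2, -0.20 to 0.064 for Tgfb3, -0.49 to 0.12 for Inhba, -0.24 to 0.042 for Tgfbr1 and -0.083 to 0.20 for Tgfbr2. At WL2 against WL1 they ran from -0.32 to 0.10 for Tgfb2, -0.20 to 0.033 for Tgfb3, -0.51 to 0.13 for Inhba, -0.068 to 0.088 for Tgfbr2 and -0.24 to 0.064 for Smad7.

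Depth limits Inhba, with 19 to 38 reads per library, and Tgfb2, with 70 to 131, most among the members. With 3 libraries per phase, exact permutation tests cannot go below 0.1.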
